A study of Mus musculus with 24 samples.

Results

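Genes of neutrophils, platelets and bone marrow were followed in pools of mouse pineal glands, with retinas as a reference. The 9 genes were S100a8, S100a9, Camp, Ngp, Ltf, Chil3, Slfn4, Ppbp and Rgs18, out of 18193 genes measured. They were matched by the gene symbol of the platform annotation, which gave 10 probe sets of 45101, because Rgs18 had 2. The genes had been chosen by their pineal signals at ZT6, which differed between genotypes. The values of that contrast are therefore given as a description, with no test. Control mice were C57BL/6J with the alleles NeuroD1flox/flox and no Cre. The conditional knockout (cKO) carried NeuroD1flox/flox together with Crx-Cre+/-, in which the promoter of Crx, a gene of pinealocytes and photoreceptors, drives the Cre recombinase. Both genotypes thus had floxed alleles. The mice were of both sexes, 2 months old, and were kept at 12 h light and 12 h dark. Tissue was taken at ZT6, in the light phase, or at ZT20, in the dark phase under dim red light. Each sample was a pool of 6 glands or 6 retinas, and each of the 4 pineal and 4 retinal groups had 3 pools. P-values therefore concern differences between pools, not between single mice. In the pineal gland the spread they were set against came mainly from genes of like signal, not from each gene's own pools. The labels name the samples as biological replicates.

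Neutrophils are short-lived white blood cells that mature in the bone marrow and carry antimicrobial proteins in their granules and cytosol. The granule genes are transcribed during maturation in the marrow, so their messenger RNA is highest in precursors and young cells. Platelets are shed by megakaryocytes of the marrow and carry messenger RNA but no nucleus. The pineal gland is a vascular organ under the skull that secretes melatonin at night. Its main cell is the pinealocyte.

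S100a8 and S100a9 encode the 2 subunits of calprotectin, the calcium- and zinc-binding protein that fills the neutrophil cytosol. Camp encodes cathelicidin, Ngp a granule protein of the cystatin fold and Ltf the iron-binding lactoferrin, all of the secondary granules. Chil3 encodes a chitinase-like lectin of neutrophil precursors and some macrophages. Slfn4 is a Schlafen family gene of myeloid cells. Ppbp encodes the precursor of the platelet chemokine CXCL7, and Rgs18 a regulator of G-protein signalling found in megakaryocytes and platelets. S100a8 and S100a9 lie next to each other on chromosome 3, with 0 protein-coding genes between them in RefSeq. Camp, Ngp and Ltf lie on chromosome 9, with 8 protein-coding genes between Camp and Ngp and 20 between Ngp and Ltf.

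The 250 bases before the start site are shown for both calprotectin genes and for Ngp, whose signals moved together from pool to pool, and for Ppbp, whose signals did not follow them. They come from RefSeq on GRCm38.p6, read 5′ to 3′ on the strand of the gene. RefSeq promoters were matched for 8 of the 9 genes, and Rgs18 is named only. S100a8 is at chr3:90668821-90669070 on the plus strand, S100a9 at chr3:90695722-90695971 on the minus strand, Ngp at chr9:110419558-110419807 on the plus strand and Ppbp at chr5:90768268-90768517 on the plus strand. Capitals mark matches, on either strand, to 4 motifs of factors that act in blood cells or at start sites. The TATA box was searched as TATAAA. The motif of the C/EBP factors, which act in granulocyte maturation, was searched as TTGCNNAA. The core shared by ETS factors such as PU.1 was searched as GGAAGT. The motif of the GATA factors, which act in megakaryocytes and red cell precursors, was searched as AGATAA, and all 4 promoters follow.
S100a8: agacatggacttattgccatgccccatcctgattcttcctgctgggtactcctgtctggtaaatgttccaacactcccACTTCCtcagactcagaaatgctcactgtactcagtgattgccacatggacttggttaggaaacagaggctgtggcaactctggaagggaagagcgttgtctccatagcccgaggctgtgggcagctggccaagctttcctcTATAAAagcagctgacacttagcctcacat
S100a9: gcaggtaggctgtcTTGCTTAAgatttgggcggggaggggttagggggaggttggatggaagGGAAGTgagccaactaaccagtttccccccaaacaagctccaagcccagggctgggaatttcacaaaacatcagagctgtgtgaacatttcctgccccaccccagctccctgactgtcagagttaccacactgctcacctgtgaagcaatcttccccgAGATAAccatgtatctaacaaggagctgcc
Ngp: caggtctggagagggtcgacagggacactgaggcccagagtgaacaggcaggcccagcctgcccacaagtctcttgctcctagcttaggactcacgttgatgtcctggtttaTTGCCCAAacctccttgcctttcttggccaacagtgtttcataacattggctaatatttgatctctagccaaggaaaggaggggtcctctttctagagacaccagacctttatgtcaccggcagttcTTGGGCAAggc
Ppbp: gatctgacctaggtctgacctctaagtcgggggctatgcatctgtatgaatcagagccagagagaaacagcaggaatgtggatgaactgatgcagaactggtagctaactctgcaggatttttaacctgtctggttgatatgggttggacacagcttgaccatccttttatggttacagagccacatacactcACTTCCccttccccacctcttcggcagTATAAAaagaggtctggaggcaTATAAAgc
A TATAAA lay 30 to 25 bases before the start of S100a8 and of Ppbp, and Ppbp had a second one 8 to 3 bases before it. It was found in 3 of the 8 promoters, against 12.4% of 32851 RefSeq promoters of the same length. TTGCNNAA was found in S100a9, Ngp and Ltf, thus in 3 of 8, against 9.56% of all promoters. GGAAGT was found in 5 of 8, among them S100a8, S100a9 and Ppbp, against 19.7%. AGATAA was found in 3 of 8, against 9.99%. No 2 of these matches overlapped. Camp, whose signals also moved with those of the calprotectin genes, had no match to any of the motifs. A match describes the letters, not a site of binding.

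Signals are linear array intensities. The median signal of an array was 107.1 to 158.8 for pineal pools and 107.8 to 183.1 for retinal pools. At ZT20 the pineal arrays of the cKO had lower medians (107.1 to 129.3) than those of the controls (132.3 to 156.4). Precision is limited by how few arrays there were. Neurod1, the deleted gene, had signals of 4647 to 5268 in control pineal pools at ZT6 and of 29.1 to 83.5 in cKO pools. At ZT20 it had 3156 to 4323 in controls, but 22.5, 1897 and 960 in cKO pools 1, 2 and 3. Thus cKO pools 2 and 3 at ZT20 kept a part of the signal of their target, as did retinal cKO pools 2 and 3 at ZT20 (3595 and 3582, against 369 in pool 1). Pineal results at ZT20 are given with and without these pools. The pinealocyte gene Tph1, which encodes the first enzyme of serotonin synthesis, was at 11349.5 to 12566 in all 12 pineal pools. The rod gene Gnat1 varied from 72.6 to 3830 between pineal pools and was highest in pool 3 of both genotypes at ZT6.

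In the control pineal gland at ZT6, S100a8 had signals of 3277, 1855 and 3671 in pools 1, 2 and 3. In the cKO at ZT6 it had 681, 694 and 606. All 3 cKO pools lay below all 3 control pools, and they differed little among themselves (SD 47.7 against 955 in controls). At ZT20 S100a8 had 376, 2002 and 1476 in controls and 848, 2242 and 722 in the cKO. The groups overlapped at night, because control pool 1 was low and cKO pool 2 was high. S100a9, the partner subunit, had 7022, 3438 and 6018 in controls and 1752, 1816 and 1475 in the cKO at ZT6. At ZT20 it had 1085, 3203 and 3517 in controls and 1868, 4124 and 1883 in the cKO. The low and the high pool at night were the same as for S100a8. The probe set of S100a8 is of a kind that can also bind related transcripts (suffix _s_at).

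Camp, the cathelicidin gene, had signals of 528, 319 and 734 in controls at ZT6 and of 147, 174.5 and 130.3 in the cKO. At ZT20 it had 103, 501 and 269.5 in controls and 171, 356 and 162 in the cKO. Control pool 1 was again the lowest and cKO pool 2 the highest of its group at night. Ngp had 619, 364 and 1009.9 in controls and 205.5, 192 and 237 in the cKO at ZT6. At night it had 149, 669.8 and 423 in controls and 175.5, 660.3 and 159 in the cKO. The single high cKO pool at night was thus at the level of the highest control pool. Ltf had 150.0, 120.4 and 231 in controls and 66.5, 78.5 and 52.3 in the cKO at ZT6, and at ZT20 58.8, 140.2 and 109 against 55.6, 207 and 60.2. Its signals lay above the median of the array in 3 of 12 pineal pools, so it was measured near the low end. Chil3 had 514, 228 and 654 in controls and 179, 137 and 107 in the cKO at ZT6, and at ZT20 74.7, 460.2 and 241 against 167, 424 and 167. A further probe set matches both Chil3 and Chil4 and was not used.

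Slfn4, the Schlafen gene, had signals of 219, 212 and 446 in controls at ZT6 and of 91.9, 61.7 and 78.3 in the cKO. At ZT20 it had 93.8, 89.6 and 194 in controls and 137, 191 and 189 in the cKO. Its lowest control pool at night was pool 2, and cKO pools 2 and 3 were alike. Another probe set matches both Slfn4 and Slfn3 and was not used. Ppbp, the platelet chemokine gene, had 736, 598 and 1302 at ZT6 in controls, against 718, 294 and 221 in the cKO. Its cKO pool 1 lay among the controls, so the groups overlapped. At ZT20 Ppbp had 218, 395 and 380.5 in controls and 444, 316 and 724 in the cKO. Rgs18 had 207, 256 and 431 at ZT6 in controls, against 96.9, 91.1 and 83.7 in the cKO, and at ZT20 92.2, 154 and 177 against 117, 90.7 and 217. In both platelet genes, by the probe set used, the highest cKO pool at night was pool 3 and the lowest was pool 2. This was the reverse of S100a8. The second probe set of Rgs18 had means of 183 ± 62.8 in controls and 74.2 ± 18.6 in the cKO at ZT6. At ZT20 the means were 97.6 ± 35.8 and 74.9 ± 46.3 (SD, n = 3 each). In pools 1, 2 and 3 at ZT20 it had 79.5, 138.8 and 74.5 in controls and 42.3, 54.6 and 127.9 in the cKO. Its lowest cKO pool was thus pool 1, and its lowest control pool was pool 3.

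**Figure D1:**
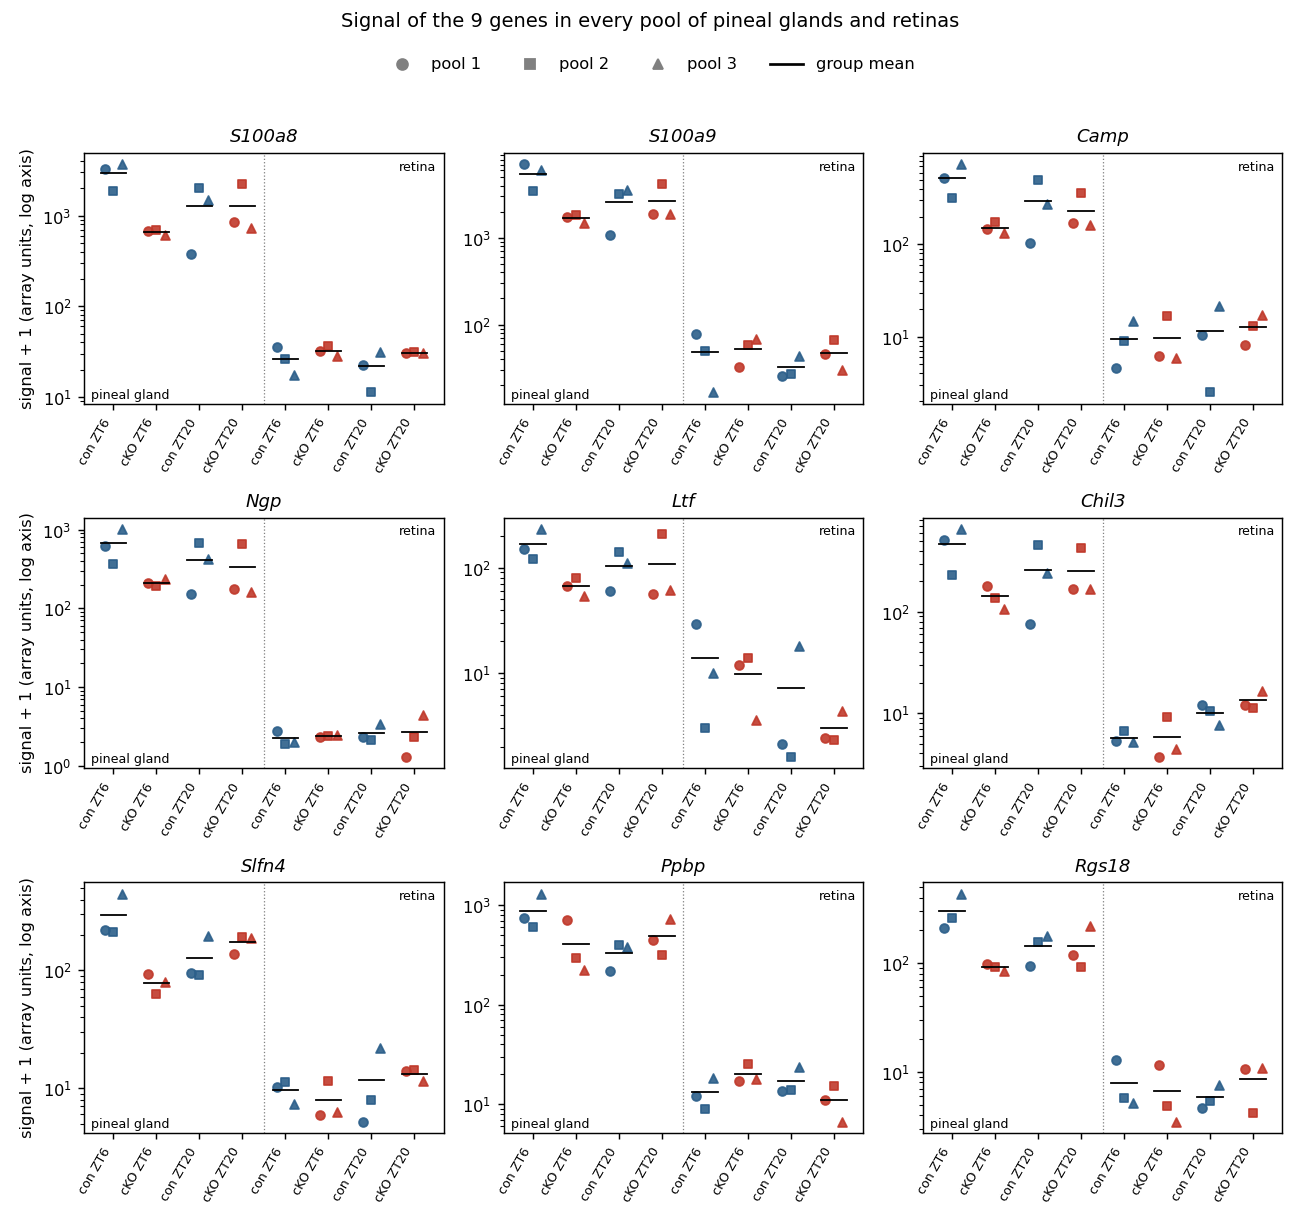
Signal + 1 on a log axis for the 9 genes in each pool of pineal glands (left of the dotted line) and retinas (right of it), with control in blue, cKO in red and a bar at the group mean. In the pineal gland the ZT6 control group has the highest mean for all 9 genes, the ZT6 cKO pools lie below all ZT6 control pools except for Ppbp, and the ZT20 groups overlap for every gene.

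By group means the ZT6 control group was highest for all 9 genes, and the ZT6 cKO group was lowest for 8. The exception was Ppbp, whose lowest mean was in the ZT20 controls. The middle ranks were split, with the ZT20 controls next to the top for S100a8, Camp, Chil3 and Ngp, and the ZT20 cKO for the other 5. Most neighbours in these orders overlapped. Steps without overlap were the lowest step for S100a8 and the highest step for Slfn4.

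At ZT6, the contrast used to pick the genes, all 9 were lower in the cKO, by a log2 difference of -2.07 for S100a8 (SE 0.23) to -1.13 for Ltf (SE 0.28). The median was -1.52, beside 0.03 over all 11936 genes tested. In mean signal the control exceeded the cKO 4.44-fold for S100a8, 3.27-fold for S100a9, 3.50-fold for Camp, 3.14-fold for Ngp and 2.54-fold for Ltf. It did so 3.30-fold for Chil3, 3.78-fold for Slfn4, 2.14-fold for Ppbp and 3.29-fold for Rgs18. For 8 of the 9 genes every cKO pool was below every control pool, the exception being Ppbp. Over all genes tested this held for 8.21%, and 1.2% passed limma's test as lower in the cKO (adjusted p under 0.05). In bulk pools, fewer cells of a type and less RNA per cell cannot be told apart.

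At ZT20, in arrays that the choice had not used, 0 of the 9 genes passed limma's test (Benjamini-Hochberg over all genes tested), where 1.02% of all genes did. Of the 9, 1 had an unadjusted p under 0.05, as did 9.87% of all genes. Adjusted p ran from 0.36 to 0.95. The differences, cKO minus control, ran from -0.38 for Ngp (SE 0.26) to 0.52 for Ppbp (SE 0.23, unadjusted p = 0.023, limma), with a median of 0.08 beside -0.15 over all genes. S100a8 differed by 0.10 (SE 0.23) and S100a9 by 0.08 (SE 0.19). No gene had groups without overlap, which 7.12% of all genes had. With 3 pools a group an exact permutation test of 1 gene cannot give a p under 0.1.

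The precision at night was low. The 95% intervals reached from -0.88 to 0.97 over the 9 genes, and from -1.47 to 1.36 when each gene's own spread was weighted more, in a limma fit without a variance trend. The night result also turned on single pools. Without control pool 1, 2 genes passed as lower in the cKO, S100a8 at -0.62 (adjusted p = 0.0498, limma) and Ngp at -0.96 (adjusted p = 0.0028, limma). Over all genes 413 of 11917 then passed as lower and 7 as higher, with a median difference of -0.23. Without cKO pool 2, Ngp passed at -1.01 (adjusted p = 0.025, limma), where 38 of 11892 genes passed as lower and 1 as higher. In both fits limma gave each gene's own spread no weight, and the pools of Ngp overlapped between genotypes. Without cKO pools 2 and 3, which held Neurod1 signal, 0 of 8 genes tested passed, and their median difference was -0.29 beside -0.35 over all genes. The lone cKO pool was then assumed to vary like the other groups. With array medians centred, the median of all genes moved to 0.18 and that of the 9 to 0.42, and 0 of 9 passed, the smallest adjusted p being 0.069. The scaling also moved the calls over all genes at ZT20 from 1 higher and 121 lower to 498 higher and 17 lower, and at ZT6 from 88 higher and 143 lower to 4781 higher and 153 lower. After quantile normalisation, and also without the variance trend, 0 of 11936 genes passed at ZT20. A failure to pass in those fits is therefore not particular to any gene named below.

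**Figure D2:**
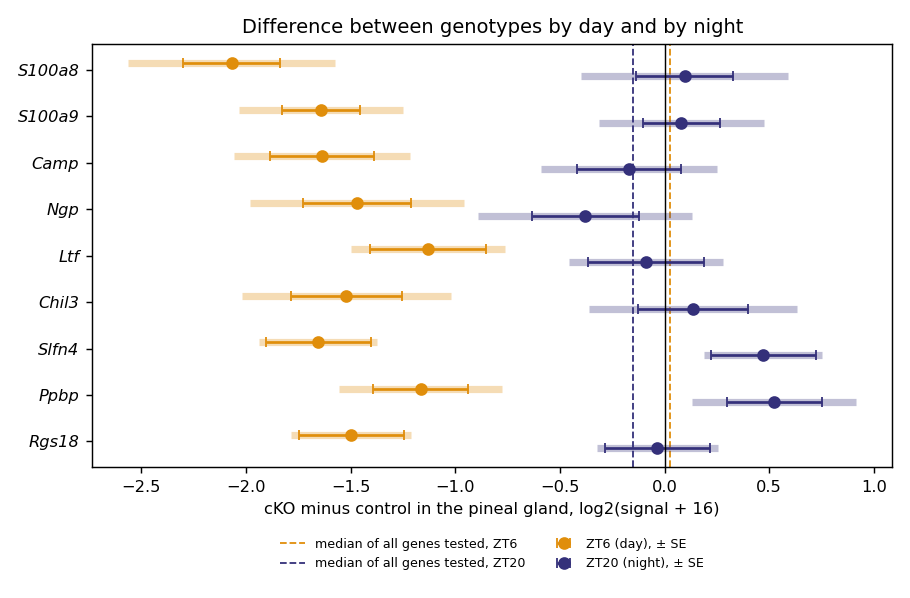
Difference in log2(signal + 16) between cKO and control pineal glands for each of the 9 genes at ZT6 (orange) and ZT20 (blue), with 1 SE as a capped line and 1 SE of the fit without a variance trend as a pale bar. All 9 ZT6 values lie between -2.07 and -1.13, and the ZT20 values lie between -0.38 and 0.52 around the dashed median of all genes at -0.15.

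The day and night values share the ZT6 arrays, so the change between times is given as values only. In controls all 9 genes were lower at ZT20 than at ZT6, by -1.42 for S100a8 to -0.65 for Ltf, with a median of -0.99 beside 0.02 over all genes. The pools did not overlap for Slfn4, Ppbp and Rgs18, thus for 3 of 9, where 11.2% of all genes were below without overlap. The second probe set of Rgs18 did overlap, at 74.5 to 138.8 against 124.5 to 249.4 at ZT6. In the cKO all 9 were higher at ZT20, by 0.32 for Ngp to 1.01 for Slfn4, with a median of 0.48 beside -0.15. The pools did not overlap for S100a8, S100a9 and Slfn4, thus for 3 of 9, where 5.49% of all genes were above without overlap. Pools 2 and 3 of the cKO at ZT20 kept Neurod1 signal. In pool 1 alone, Ngp (175.5) and Ltf (55.6) lay below their ZT6 cKO means of 211 and 65.8. The other genes lay above theirs. In S100a8 the night controls ran from 376 in pool 1 to 2002 in pool 2, and the latter lay within the ZT6 control range of 1855 to 3671.

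Within groups, the genes separated into sets that were named after their values had been seen, so the split is a description. The 6 genes S100a8, S100a9, Camp, Ngp, Ltf and Chil3 deviated together from their group means. Over 12 pools the correlation of these deviations was 0.927 in the median of 15 pairs (0.836 to 0.975). Ppbp and Rgs18 correlated at 0.750. Between these 2 sets the 12 pairs had a median of 0.176 (0.040 to 0.396). Slfn4 lay between them, at 0.296 to 0.409 with the 6 genes and at 0.515 and 0.610 with Ppbp and Rgs18. The values of a pool share 1 RNA sample and 1 array.

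The pools behind this pattern were the same from gene to gene. Control pool 3 at ZT6 was the highest of its group for 8 of 9 genes, all but S100a9. Control pool 1 at ZT20 was the lowest of its group for 8 of 9, all but Slfn4, with Rgs18 by the probe set used. Measured from each gene's mean over the 12 pineal pools, the 6 neutrophil genes had a mean log2 deviation of -1.21 there, and of 0.72 and 0.21 in pools 2 and 3. In the cKO at ZT20, pool 2 was highest for the 6 neutrophil genes and for Slfn4. It was lowest for Ppbp and, by the probe set used, for Rgs18. The mean deviation of the 6 was 0.79 in that pool, against -0.52 for Ppbp and -0.62 for Rgs18. In pool 3 it was -0.64, against 0.63 for Ppbp and 0.50 for Rgs18. In the cKO at ZT6 the mean deviation of the 6 was -0.82 to -0.59 in the 3 pools, while Ppbp was at 0.62 in pool 1 and at -1.01 in pool 3.

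**Figure D3:**
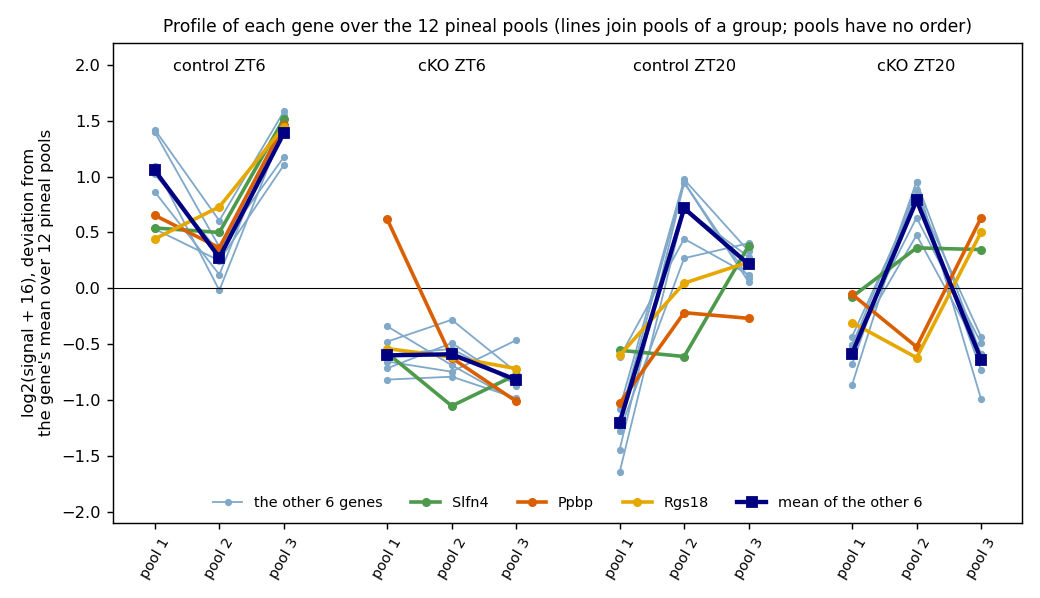
Log2(signal + 16) of each gene minus its mean over the 12 pineal pools, by group and pool, with the 6 neutrophil genes in pale blue, their mean in dark blue, Slfn4 in green, Ppbp in orange and Rgs18 in yellow. The 6 genes move as a bundle, with lows in control pool 1 and highs in cKO pool 2 at ZT20, where Ppbp and Rgs18 are low.

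Other markers of the same cells were read from lists, none of which held the 9 genes. Of 28 further neutrophil genes measured, 7 were above the filter on low signals. The summed signal of the 28 was 4494 to 5411 in controls and 3424 to 3748 in the cKO at ZT6, and 2880 to 4677 against 2856 to 3642 at ZT20. Much of the sum was Chil1, which changed little at ZT6, with 2168 ± 35.2 in controls and 2073 ± 66.6 in the cKO. Padi4 was also alike there, with 164 ± 5.2 and 171 ± 24.5 (SD, n = 3). At ZT6, the contrast used for the choice, the cKO pools were below those of controls without overlap for 5 of 7, beside 8.21% of all genes. This is a description, and it was not particular to neutrophil genes. It held for 5 of 7 bone and osteoclast, 4 of 4 mast cell and 8 of 15 monocyte and macrophage genes above the filter. It held for 3 of 10 megakaryocyte and platelet, 2 of 8 B lineage and 0 of 6 endothelial genes. Lcn2, which encodes the iron-trapping lipocalin of secondary granules, followed the 6 genes most closely (r = 0.967 over 12 pineal pools, as a description). It had 399.8, 259.9 and 485 in controls and 128, 143 and 157 in the cKO at ZT6, and 106, 412 and 313 against 162, 480.5 and 175 at ZT20. The low control pool and the high cKO pool of the night were the same ones. In the retina Lcn2 did not follow the 6 genes, which stayed below the array median there. It was at 177 ± 51.8 in controls and 1625 ± 519 in the cKO at ZT6, and at 142 ± 59.6 and 2646 ± 1066 at ZT20 (SD, n = 3). Genes of the primary granules, which are made earlier in the marrow, were dim. Elane, the neutrophil elastase gene, was at 10.7 to 42.5 and Ctsg, the cathepsin G gene, at 1.5 to 43.0 in all 12 pools. Mpo, the myeloperoxidase gene, ranged from 9.8 to 141, with overlapping groups. The collagenase gene Mmp8 ranged from 16.6 to 71.4. At ZT20 1 of the 7 passed as lower in the cKO, where 121 of 11936 genes did. This was the gelatinase gene Mmp9, at 248 ± 32.1 against 519.5 ± 277 (SD, n = 3, log2 difference -0.85, adjusted p = 0.032, limma). It did not pass after centring of array medians, after quantile normalisation or without cKO pools 2 and 3 (adjusted p = 0.25, 0.72 and 0.090). In control retinas, where none of the 9 genes was above the array median, Mmp9 was at 781 ± 170 at ZT6 and 936 ± 135 at ZT20 (SD, n = 3). The other 6 neutrophil genes had adjusted p above 0.05 and unadjusted p above 0.05 in the pineal gland at ZT20.

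Of 16 megakaryocyte and platelet genes measured, 10 were above the filter, and 8 of these had a higher correlation with Ppbp than with the mean of the 6 neutrophil genes over the 12 pools. Closest to Ppbp were Tubb1, the platelet tubulin gene (r = 0.948), Nrgn (0.934), Clec1b, a platelet receptor gene (0.903), and Gp9, a platelet glycoprotein gene (0.896). Tubb1 had 229.9, 323 and 667 in controls and 294, 143 and 116 in the cKO at ZT6, and 101, 248 and 170.2 against 229, 161 and 374 at ZT20. In each of the 4 groups it was highest in the same pool as Ppbp. At ZT20 1 of 10 passed as lower in the cKO, where 121 of 11936 genes did. This was Vwf, which encodes the adhesion protein of platelets and endothelium. Vwf was at 3014 ± 473 against 4298 ± 610 (SD, n = 3, log2 difference -0.51, adjusted p = 0.030, limma). It did not pass after centring or quantile normalisation (adjusted p = 0.38 and 0.31), and passed without cKO pools 2 and 3 (0.0046).

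Other marrow and skull cells moved in part with the 9 genes. The summed signal of 10 bone and osteoclast genes was 11515 to 13173 in controls and 8519 to 10316 in the cKO at ZT6, and 9906 to 13710 against 7294 to 10049 at ZT20. Mmp13, a collagenase gene of bone, had 1630.0, 689.7 and 961 in controls and 156, 378 and 123 in the cKO at ZT6. At ZT20 it had 186, 1180.2 and 841 against 243.5, 118 and 383. It was lowest in control pool 1, as 8 of the 9 genes were, but also lowest in cKO pool 2, where the neutrophil genes were highest. At ZT20 4 of 7 bone genes above the filter passed as lower in the cKO, where 121 of 11936 genes did. They were Mmp13 (log2 difference -1.30, adjusted p = 0.0023), the osteoclast protease gene Ctsk (-0.83, 0.020), the osteoblast factor gene Sp7 (-0.79, 0.048) and the collagen gene Col1a1 (-0.42, 0.0048), by limma. None of the 4 passed after centring of array medians or quantile normalisation, and their direction stayed. After quantile normalisation 0 of all 11936 genes passed, so that failure is not particular to these 4. Each passed in 7 to 16 of 24 alternatives. The part of bone cells in the result for the 9 genes was not tested.

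All 4 mast cell genes above the filter, of 8 measured, passed as lower in the cKO at ZT20, where 121 of 11936 genes did. Mast cells are tissue-resident cells with protease granules, and the 4 were the protease genes Tpsb2 (log2 difference -1.24), Cma1 (-1.20), Mcpt4 (-1.12) and Cpa3 (-1.05), with adjusted p of 1.5e-04 to 0.0032 by limma. The summed signal of the 8 genes was 1797 to 3335 in controls and 823 to 1509.8 in the cKO at ZT20. The 4 passed with array medians centred. They did not pass after quantile normalisation, where no gene did. Each passed in 19 or 20 of 24 alternatives. At ZT6 the sums were 2032 to 2291 in controls and 895 to 1312 in the cKO. The sums of the genotypes thus did not overlap at either time, whereas those of the 9 genes overlapped at ZT20 (2251 to 7614 in controls and 3983 to 8612 in the cKO). Without cKO pools 2 and 3, 4.93% of all genes passed as lower at ZT20 and 33.3% had an unadjusted p under 0.05. In that fit 4 of 4 mast cell genes passed and 2 of 7 bone genes, among them Col1a1 but not Mmp13, Ctsk or Sp7. Of the further neutrophil genes then above the filter 0 of 6 passed (limma, 3 of the 6 with unadjusted p under 0.05). The part of mast cells in the result was not tested.

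Of 15 monocyte and macrophage genes, 2 passed as lower at ZT20, where 121 of 11936 genes did. These were F13a1, the coagulation factor XIII subunit gene (log2 difference -0.71, adjusted p = 0.031), and Mrc1, the macrophage mannose receptor gene (-0.60, 0.034), by limma, and neither passed after centring or quantile normalisation, while both passed without cKO pools 2 and 3. Of 8 B lineage genes 1 passed, Ebf1, the gene of an early B cell factor (-0.66, 0.035), with the same losses under either scaling and a pass without those pools. Among 4 red blood cell genes 0 passed at ZT20 by limma, and 0 had an unadjusted p under 0.05, while with array medians centred 1 passed as higher in the cKO and without cKO pools 2 and 3 again 0 of 4 passed (0 unadjusted). Alas2, which encodes the first enzyme of haem synthesis in red cell precursors, had 923 ± 184 in controls and 417 ± 89.0 in the cKO at ZT6, and 465 ± 176 and 465 ± 35.7 at ZT20 (SD, n = 3). Its groups did not overlap at ZT6 and overlapped at ZT20. The T and NK cell gene Gzma, which encodes granzyme A, had 277 ± 46.8 and 124 ± 17.1 at ZT6, and 123 ± 12.2 and 132 ± 31.2 at ZT20. Of 10 pinealocyte genes 1 passed at ZT20, Neurod1 itself (log2 difference -3.12, adjusted p = 1.5e-12, limma). Neurod1 missed the threshold after centring (adjusted p = 0.051), quantile normalisation (0.31) and without the variance trend (0.26), and passed in 19 of 24 alternatives, with -6.55 without cKO pools 2 and 3. With array medians centred 4 of the 10 passed as higher in the cKO. Choroid plexus genes ran the other way at ZT6, with summed signals of 28703 to 38651 in controls and of 42720 to 49169 in the cKO. At ZT20 the sums overlapped (28189 to 44436 against 33965 to 45955). The choroid plexus lies near the gland, and its part in the result was not tested.

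**Figure D4:**
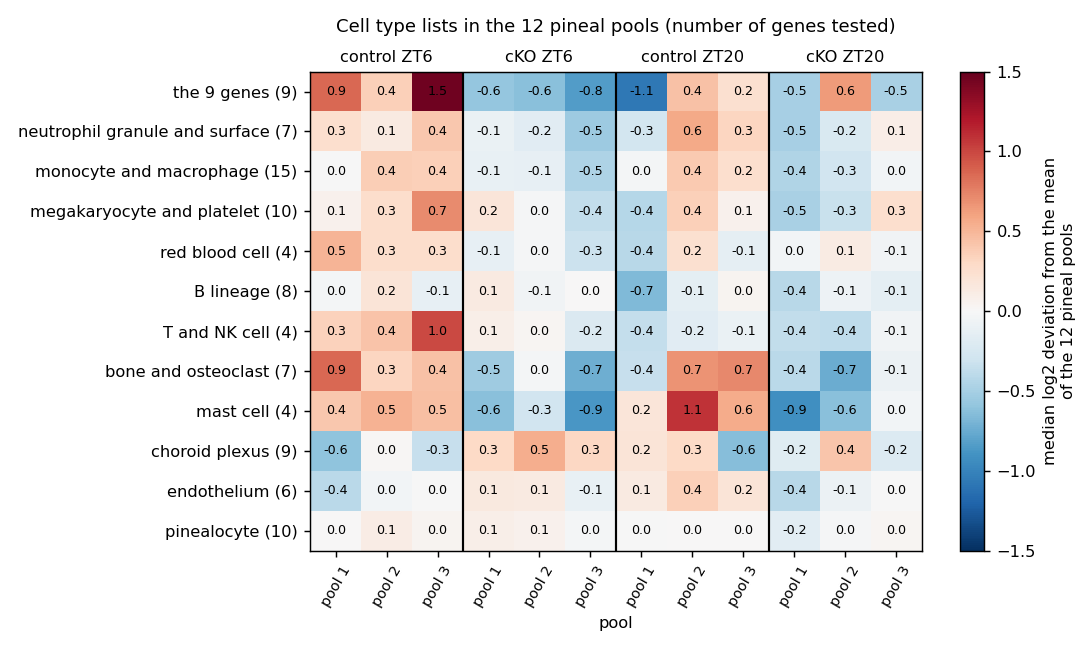
Median log2 deviation of each list of cell type genes from the mean of the 12 pineal pools, by group and pool, with the number of genes above the filter in brackets. The 9 genes are highest in ZT6 control pool 3 and lowest in ZT20 control pool 1. The mast cell genes are low in the cKO at both times, except in ZT20 cKO pool 3 (-0.04). The pinealocyte genes stay near 0.

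Genes related to the 9 by family or pathway were read in the same way. Of the S100 family, 7 of 11 further members were above the filter. S100a1 had 3119 ± 109 and 3147 ± 191 at ZT6, and S100a6 had 2727 ± 490 and 1983 ± 465 (control and cKO, SD, n = 3). The median log2 difference of the 7 at ZT6 was -0.40, beside 0.03 over all genes. Without overlap, 3 of the 7 were lower in the cKO, beside 8.21% of all genes. Of 3 further Schlafen genes above the filter Slfn2 had 249 ± 62.3 in controls and 183 ± 59.9 in the cKO at ZT6. At ZT20 0 of the 7 and 0 of the 3 passed by limma (3 and 2 with unadjusted p under 0.05, beside 9.87% of all genes), and 1 S100 gene passed as higher with array medians centred. Of receptors of the encoded proteins, such as Lrp1, which binds lactoferrin, 0 of 6 passed (4 unadjusted). Of myeloid and megakaryocyte transcription factors, such as Runx1, Gata2 and Fli1, 0 of 8 passed (3 unadjusted). Of interferon-stimulated genes 0 of 10 passed (4 unadjusted). Most genes were slightly lower in the cKO at that time, with a median of -0.15. Without cKO pools 2 and 3, 1 of 7 S100 genes, 1 of 3 Schlafen genes and 1 of 6 receptors passed as lower, where 4.93% of all genes did. In that fit 0 of 8 transcription factors and 0 of 10 interferon-stimulated genes passed (4 and 4 unadjusted, beside 33.3% of all genes).

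Over the 12 pineal pools the genes with the profile most like the mean of the 9 were Ifitm6 (r = 0.933), Lcn2 (0.920), Ms4a1 (0.843), Bhlhe41 (0.830) and Cd79b (0.822). Zfp932, Pglyrp1, Ptpn22, Gzma and Niban3 followed at 0.814 to 0.799. These correlations include the genotype contrast used for the choice and are a description. Ms4a1, the CD20 gene of B cells, had 314 ± 6.18 in controls and 155 ± 12.3 in the cKO at ZT6, and 146 ± 60.1 and 149 ± 32.4 at ZT20 (SD, n = 3).

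In the retina none of the 9 genes was above the median of the array on any of the 12 arrays. S100a9 was at 15.6 to 77.0 there, against 1085 to 7022 in the pineal gland. Ngp was at 0.3 to 3.4, against 149 to 1009.9. In controls at ZT20 the log2 differences, pineal gland minus retina, ran from 2.38 for Slfn4 (SE 0.28) to 5.64 for S100a9 (SE 0.38). The 9 genes were above the filter through pineal arrays alone, so they had to differ. That all 9 passed limma's test as higher in the pineal gland, where 42.8% of all 12881 genes did, is therefore no support for a difference of theirs. The retinal signals were dim, so the log2 differences are on the log2(signal + 16) scale and understate the ratio. Between genotypes in the retina none of the 9 was tested, because none was above the filter, with or without cKO pools 2 and 3, and 24.4% of the genes tested at ZT6 and 6.51% at ZT20 passed. Fitted on all pools without the filter, their differences were -0.15 to 0.32 at ZT6 and -0.30 to 0.39 at ZT20, where 0 of 9 passed by limma at either time (smallest adjusted p = 0.31 and 0.51) and 0 had an unadjusted p under 0.05.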

How the data were processed

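Per the labels' protocols, RNeasy Micro columns gave the RNA of each pool of 6 pineal glands or retinas, and NuGEN Ovation kits served for amplification and biotin labelling. The deposited values are linear intensity signals, 1 for each of 45101 probe sets on 24 Affymetrix arrays. The submitters' processing notes name GCOS, the Affymetrix scanner software, but its version and the array scaling are not given in the sources used here, nor is any scan batch. No normalisation was added in the reported values. Among the 276 pairs of arrays, the largest share of equal values was 0.494%.

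Of the probe sets 34945 had 1 gene symbol, 932 several and 9211 none, and 64 control sets were left out. For each gene the set of highest mean over all 24 arrays was taken, avoiding sets with the suffix _x_at. Signals were taken as log2(signal + 16), which understates changes of dim genes. A gene was tested if it lay above the array median on at least 3 arrays. limma 3.58.1 in R 4.3.3 fitted 1 mean per group in each tissue (12 arrays), or in both tissues (24 arrays) for pineal gland against retina. eBayes with a mean-variance trend followed, two-sided, with Benjamini-Hochberg adjustment over all genes tested and a threshold of 0.05. In the pineal fit the prior had 154.4 degrees of freedom beside 8 residual ones (7.1 without the trend), so standard errors rest mainly on the spread of genes of like signal. The script was tested on simulated data. Python 3.11.15 made the tables.

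The 9 genes and the gene lists were chosen with earlier results of these data known. The genes named were the 9, Neurod1, at most 4 members per list that passed at ZT20 (those that changed most; in a list without any, at most 3 of the brightest), and the 10 genes most like the mean of the 9. Lcn2, Chil1, Padi4, Elane, Ctsg, Mpo, Mmp8, Alas2, Gzma, Tph1, Gnat1 and the genes most like Ppbp were singled out after their values were seen. The labels give pools the numbers 1 to 3 with no shared origin stated. Deviations of same-numbered control and cKO pools from their group means correlated at 0.186 to 0.349 in the pineal gland at ZT6. This was over 0.1 in all 3 pairs. At ZT20 they correlated at 0.069 to 0.197, with 1 pair under 0.1. No values for differently numbered pools were set beside these, so they do not establish pairing at either time. The reported fits used no pairing, and the pool number entered only as an alternative.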

Additional observations from a re-analysis of the deposited data

How the results depend on the processing

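The 24 alternatives in the pineal gland changed the scaling, the pseudocount (1 or 64), the filter, the variance trend, the probe sets or the samples. At ZT20 the number of the 9 genes that passed was 0 in all 12 alternatives that did not leave out 1 pool (smallest adjusted p = 0.069, limma) and 0 to 2 when 1 pool was left out. Among the 12, 0 of all genes passed at ZT20 after quantile normalisation, without the filter, without the variance trend or with probe sets averaged. For those settings 0 of 9 says nothing about the 9 genes. Differences at ZT20 that turned sign were S100a8 (-0.29), S100a9 (-0.30) and Chil3 (-0.29) without cKO pools 2 and 3, and Camp (0.15 and 0.11), Ltf (0.20 and 0.20) and Rgs18 (0.26 and 0.26) with array medians centred and after quantile normalisation. With 1 pool left out the differences ran from -0.62 to 0.56 for S100a8, -0.46 to 0.38 for S100a9, -0.73 to 0.33 for Camp, -0.51 to 0.68 for Chil3, -1.01 to 0.07 for Ngp, -0.39 to 0.20 for Ltf and -0.36 to 0.20 for Rgs18. The median of the 9 at ZT6 stayed between -1.83 and -1.24. Against the retina, where the filter fixed the outcome, 8 or 9 genes passed, except when only the groups compared were fitted, where 4 passed because 4 were above the filter. Calls over all genes moved from 122 to 0 to 587 at ZT20 and from 231 to 33 to 4934 at ZT6. In the retina they moved from 2854 to 1155 to 3556 at ZT6 and from 761 to 273 to 1298 at ZT20. With the pool number as a replicate block 0 of the 9 passed at ZT20 and 157 of all genes did; the block changed no other call on the 9. The cause of these changes was not tested. Dim signals limit Ltf, Slfn4 and Rgs18, which were above the array median in 3, 7 and 6 of 12 pineal pools.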

Other observations

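Of the B lineage genes, 3 had a pool of their own. Igll1, a surrogate light chain gene of B cell precursors, had 603, 177 and 193 in cKO pools 1, 2 and 3 at ZT6, against 53.0 to 93.2 in controls. Iglv1, an immunoglobulin light chain gene, had 1100.3, 196 and 426.5 there, against 34.9 to 59.6. Ighm, the heavy chain gene of IgM, had 1617, 242 and 479.5, against 273 to 348. At ZT20 Igll1 and Iglv1 were at 32.3 to 98.7 in all 6 pineal pools. The cKO pools at ZT6 were thus high in light chain signal where the neutrophil genes were low. Other B lineage genes ran the other way at ZT6. Ms4a1 was at 314 ± 6.18 in controls and 155 ± 12.3 in the cKO, Cd79b at 390.3 ± 34.2 and 234.6 ± 34.2, and Cd79a at 108 ± 14.1 and 67.7 ± 19.3 (SD, n = 3). The genes were chosen after their values were seen, and no test is given.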
